A study of Mus musculus with 2 samples.

Results

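The cells described here were Pax7-positive progenitors with little or no Cdkn1c mRNA in the iMPC clone made without CP. Induced myogenic progenitor cells (iMPCs) are skeletal muscle progenitors obtained from mouse fibroblasts by forced MyoD expression, here by 4 rounds of transfection with synthetic MyoD mRNA, together with small molecules. F/R/C is Forskolin, which activates adenylyl cyclase, RepSox, which inhibits the TGF-beta receptor kinase, and CHIR, which inhibits GSK3. CP is a JAK inhibitor. Members were chosen by measured values. A droplet barcode of the F/R/C library was kept with 250 to 4000 detected genes, at most 15% of its unique molecular identifiers (UMIs, counted RNA molecules) from mitochondrial genes and at most 40% from ribosomal protein genes. A member then had at least 1 Pax7 UMI, at most 3 Cdkn1c UMIs per 10000, under 5 Myog UMIs per 10000, and under 20 UMIs per 10000 over the 7 cycling genes Mki67, Top2a, Cenpf, Ube2c, Tpx2, Birc5 and Cdk1. This gave 304 members of 3962 kept F/R/C barcodes, and of 14796 kept barcodes in the whole series. They were compared with the 917 kept Pax7-positive barcodes of the same library that had at least 20 Cdkn1c UMIs per 10000, called Cdkn1c-high below.

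The series holds 2 libraries, each from 1 clone, so neither the clone nor the compound has a replicate. The F/R/C-derived iMPCs were derived and grown in medium with F/R/C alone. The F/R/C+CP-derived iMPCs also received CP throughout. Both carry the Pax7-nGFP transgene on a C57BL6;DBA2 background, and both were transfected in iMPC medium with B18R, a viral protein that binds type I interferons. Multinucleated muscle cells were filtered out before loading, so the members are a part of the mononucleated fraction that passed the filter. The F/R/C library held 5541 barcodes with 500 to 33660 UMIs each (median 6722), and 71.5% of them were kept. With CP, the library had 12000 barcodes and a median of 21920.5 UMIs. Clone, compound and depth cannot be told apart between the libraries. Barcodes of 1 library are not replicates, so no test was made, and each interval below is a 95% interval for counting error only. The libraries shared 18 barcode sequences, and 1 of them was a member.

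Pax7 is the paired-box transcription factor that marks satellite cells, the resident stem cells of muscle fibres. Cdkn1c encodes p57, an imprinted inhibitor of cyclin-dependent kinases that myoblasts raise as they leave the cell cycle and differentiate. Satellite cells with little commitment are known for Pax7, Notch targets, a collagen-rich niche and low MyoD, whereas activated myoblasts raise MyoD and later Myog.

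Members made up 7.67% of the kept F/R/C barcodes (exact interval 6.86% to 8.55%) and 16.2% of the 1872 Pax7-positive ones (14.6% to 17.99%). Of the 1045 Pax7-positive barcodes that passed the Myog and cycling limits, members were 29.1%. No Cdkn1c UMI was found in 210 of the 304 members (69.1%), and no member had more than 4. The Cdkn1c-high barcodes had a median of 38.7 Cdkn1c UMIs per 10000. The limits cut through a continuum: the member with most Cdkn1c had 2.97 UMIs per 10000 and the nearest barcode outside had 3.02, while 415 Pax7-positive barcodes lay between 3 and 20. Of 540 low-Cdkn1c Pax7-positive barcodes, 227 failed the cycling limit and 16 the Myog limit, some of them both. The Cdkn1c-high barcodes had no Myog or cycling limit, and 508 of the 917 would have passed both.

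**Figure D1:**
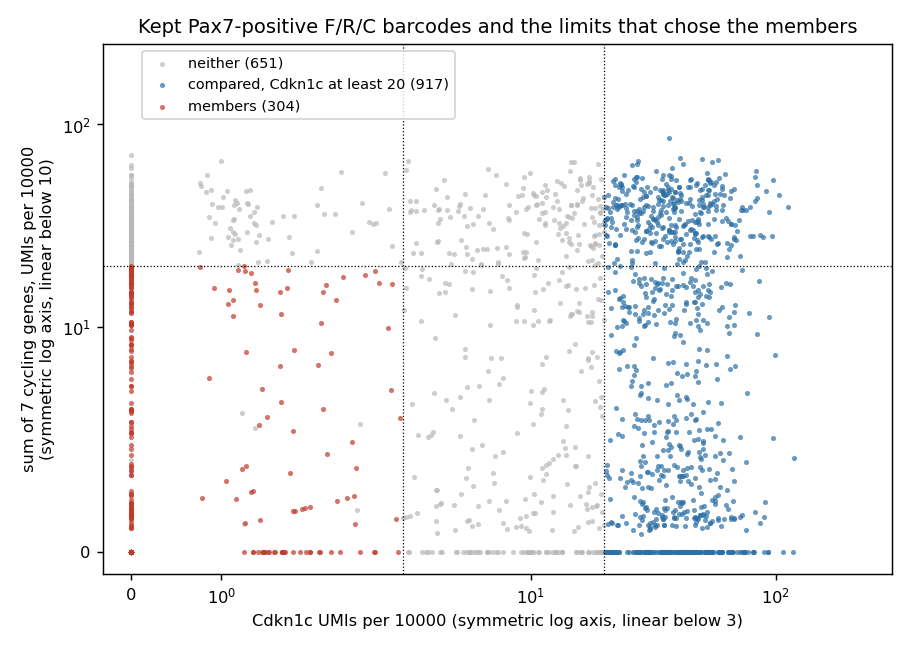
Each point is a kept Pax7-positive F/R/C barcode, with its Cdkn1c UMIs per 10000 on the horizontal axis and its summed UMIs per 10000 of the 7 cycling genes on the vertical axis (both symmetric log axes); dotted lines mark the limits. The 304 members lie in the lower left corner, most of them at 0 Cdkn1c, and the 917 Cdkn1c-high barcodes spread over both sides of the cycling limit.

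Members had a median of 6309 UMIs (791 to 15519) and 2452 detected genes, against 7761 UMIs (510 to 18587) and 2800 genes in Cdkn1c-high barcodes. The median mitochondrial share was 7.56% in members and 7.65% in Cdkn1c-high barcodes. Exactly 1 Pax7 UMI was behind the Pax7 call in 164 members (53.9%) and in 311 Cdkn1c-high barcodes (33.9%). A Pax7 UMI is required in both groups, so its level describes the rule. It was 278 counts per 1000000 summed UMIs (CPM) in members and 329 in Cdkn1c-high barcodes.

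Marker lists of other cell types differed in how far they were detected in the members. Of 10 immune markers 7 had no UMI, Ptprc and Adgre1 among them, and of 8 melanocyte markers 7 had none. Of 12 endothelial markers 6 had none, Cdh5, Kdr and Tie1 among them, and the list summed to 44.6 CPM in members and 18.2 CPM in Cdkn1c-high barcodes. The 12 connective tissue markers summed to 423 CPM in members against 214 CPM, with Lum at 0. The 13 pericyte or smooth muscle markers summed to 1004 against 1141 CPM, with none at 0. Of the other lists, Schwann or neural markers summed to 94.8 CPM in members and 115 CPM in Cdkn1c-high barcodes, adipocyte markers to 60.8 and 73.8 CPM, cartilage markers to 63.4 and 33.4 CPM, and epithelial markers to 3.04 and 0.416 CPM. With barcodes holding a Bgn or Pdgfrb UMI left out of both groups, the collagen and matrix list described below had a median log2 ratio of 0.57, against 0.66 with them.

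The genes that the study named for a stem-like subset were higher in the members. Because the study chose Apold1, Cd9, Apoe and Cebpb on these samples, and Apold1 and Cd9 come with the label of these cells, their levels describe the members and are not independent evidence. Apold1, an early response gene best known from endothelium, was at 85.7 CPM (73.2 to 99.6) in members and 2.36 CPM (1.37 to 3.78) in Cdkn1c-high barcodes. Cd9, a tetraspanin of the cell surface, was at 159 against 43.7 CPM, a log2 ratio of 1.86 (1.63 to 2.09). Apoe, a lipid carrier, was at 226 against 37.2 CPM (log2 ratio 2.60, 2.38 to 2.82), and Cebpb, a C/EBP transcription factor that keeps myoblasts from differentiating, at 149 against 43.6 CPM (1.77).

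UMIs of all 4 genes were not found together in most members, which at this depth does not show that their transcripts were apart. Exactly 3 of them had a UMI in 59 members and all 4 in 30 members, against 26 and 1 of the 917 Cdkn1c-high barcodes. No UMI of any of them was found in 36 members (11.8%) and 421 Cdkn1c-high barcodes (45.9%). A cluster of 423 barcodes led by the muscle genes Myh3, Myl4 and Acta1 (median 9159 UMIs) was set beside both groups. Whether its cells express these 4 genes was not tested, and 4 members and 9 Cdkn1c-high barcodes lie in it. With every barcode thinned to 2000 UMIs, Apold1 was found in 13.7% of members, 0.55% of Cdkn1c-high barcodes and 0.242% of that cluster. The corresponding shares were 20.1%, 7.98% and 4.84% for Cd9, and the Cdkn1c-high share of Cd9 was nearer to that of the Myh3 cluster than to that of the members. Within the members, and without thinning, Cd9 was found in 51.5% of the 99 barcodes with Apold1 and in 44.9% of the rest. For Apoe these shares were 70.7% and 52.2%.

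Across the 6342 genes with a mean of at least 20 CPM over both groups, 303 (4.78%) were at least 2-fold higher in members and 192 (3.03%) at least 2-fold lower, and the median log2 ratio of all genes was 0.03. By sign alone, 3345 of the 6342 genes were higher in members and 2997 lower. These shares and counts are the background for each list below. The 15 genes furthest in each direction are described next.

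Among the 15 genes furthest above, several encode signalling molecules. Prkcb, a protein kinase C, was at 133 CPM (117 to 150) in members and 0.42 CPM (0.086 to 1.22) in Cdkn1c-high barcodes, with UMIs in 79 members and in 3 of the 917. Slit2, a secreted ligand of Robo receptors, was at 389 against 14.0 CPM with UMIs in 168 members, and its relative Slit3 at 42.1 against 0.28 CPM with UMIs in 36 members. Areg, a ligand of the EGF receptor, was at 141 against 7.22 CPM. Scg2, a secretory granule protein, was at 157 against 3.47 CPM and was found in 64 members. No Scg2 UMI was found in 240 of the 304 members and no Areg UMI in 223, which at this depth does not show that the transcript was absent.

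Others encode transcription factors and enzymes. Ebf1, a factor of B cell and mesenchymal precursors, was at 103 against 2.36 CPM (log2 ratio 5.45, 4.74 to 6.26), with UMIs in 45 members. Tshz2, a zinc finger factor, was at 260 against 10.3 CPM, and Rorb, an orphan nuclear receptor, at 52.7 against 0.42 CPM. The quinone reductase Nqo1 was at 85.2 against 2.50 CPM and the glutathione transferase Gsta4 at 53.7 against 0.56 CPM. Aqp5, a water channel, was at 50.2 against 1.53 CPM, and Pde8b, a cyclic AMP phosphodiesterase, at 64.4 against 2.36 CPM.

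A pair of the 15 genes rested on few cells. Of the Brinp3 UMIs 40.6% came from 1 member and only 11 members had any. Of the UMIs of Cck, a peptide hormone, 50.5% came from 1 member and 7 members had any. With at least 2 Pax7 UMIs required in both groups, the log2 ratio of Cck went from 4.09 to -0.22. The other 14 genes stayed at least 2-fold higher under all 12 other settings of the limits, depth and scaling.

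Spp1, which encodes the secreted matrix protein osteopontin, was named after its values were seen, as were Trpm3, Bgn, S100a8 and other leading genes of the clusters. It was at 3562 CPM in members and 291 CPM in Cdkn1c-high barcodes. At least 20 Spp1 UMIs were found in 101 of 304 members and 10 of 917 Cdkn1c-high barcodes, while 74 members had none. The members thus ranged from no Spp1 to 408 UMIs in a single barcode.

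The gene furthest below was Spon1, a secreted matrix protein, at 3.04 CPM (6 members with a UMI) against 42.7 CPM. Cadm1, an adhesion molecule, was at 19.8 against 128 CPM. Ckb, the brain-type creatine kinase, was at 68.9 against 387 CPM, and Car2, a carbonic anhydrase, at 10.1 against 74.9 CPM. Vgll2, a TEAD cofactor of muscle, was at 6.59 against 37.8 CPM, and Rbm24, an RNA-binding protein of muscle splicing, at 18.2 against 94.8 CPM. The transcription factors Tfap2b and Sox8 were at 8.11 against 54.7 CPM and 7.10 against 37.8 CPM.

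The remaining lower genes were Myzap, Edn3, Lix1, Slc35f1, Frmd3, Ndst4 and Sh3rf3, with log2 ratios of -3.00, -2.78, -2.76, -2.76, -2.73, -2.44 and -2.42. All 15 stayed at least 2-fold lower under the same 12 settings, including the one that put the Myog and cycling limits on the Cdkn1c-high barcodes too. Trpm3, a calcium-permeable channel, was at 138 CPM in members and 686 CPM in Cdkn1c-high barcodes.

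**Figure D2:**
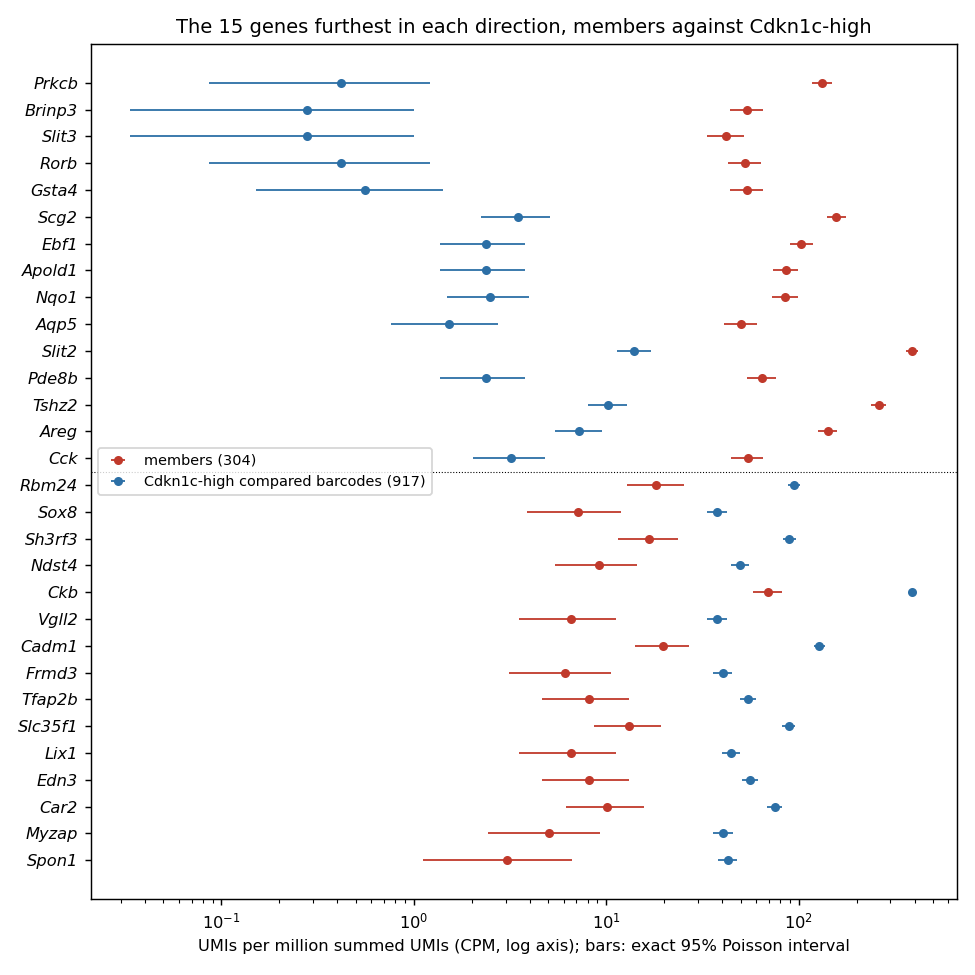
Level in CPM (log axis) of the 15 genes furthest in each direction, in members and in Cdkn1c-high barcodes of the F/R/C library; bars are exact 95% Poisson intervals and cover counting error only. Prkcb was at 133 CPM in members and 0.42 CPM in Cdkn1c-high barcodes, and Ckb at 68.9 and 387 CPM.

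Forskolin raises cyclic AMP, which activates the transcription factor CREB at the palindrome TGACGTCA. RefSeq promoter windows (GRCm38.p6, 250 bases before to 50 after the start of the gene) were therefore searched for it. TGACGTCA is the same on both strands, so a single search covers both. It was in the window of 2 of the 14 higher genes that had one, Areg and Scg2, in 0 of 11 lower genes, in 4.03% of the genes tested that had a window, and in 2.03% of all 27025 windows. The matches are printed with the motif in capitals and 10 bases on either side in lower case, because these genes also stand among the secreted products above.
Scg2: gctgagccggTGACGTCAgcgtggaatg
Areg: ggctggtccgTGACGTCAcgggcggtgg
The first is GRCm38.p6 chr1:79440077-79440104 on the minus strand, with the motif starting 68 bases before the gene's start. The second is GRCm38.p6 chr5:91139528-91139555 on the plus strand, with the motif 61 bases before the start. A match is a description of sequence and not a measured binding site. Members and Cdkn1c-high barcodes grew in the same medium with Forskolin, and a part of cyclic AMP in their differences was not tested.

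Of 13 cyclic AMP response genes at 20 CPM or more, 6 were at least 2-fold higher in members and 0 lower, with a list median log2 ratio of 0.76. Besides Areg, the phosphodiesterases Pde3a (56.3 against 3.75 CPM) and Pde10a (921 against 104 CPM) were among them, as were Gem (38.0 against 9.16 CPM), a small GTPase, and Crem (32.4 against 14.8 CPM), a CREB-family factor. The other phosphodiesterases of the list differed by less than 2-fold, with Pde4d at 332 against 209 CPM, Pde4b at 767 against 802 CPM and Pde7b at 134 against 220 CPM. With genes of at least 50 CPM only, the list median was 0.46.

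Of 29 immediate early genes, 5 were at least 2-fold higher and 0 lower, with a median of 0.34. Those 5 were Ier3 (119 against 32.2 CPM), Cebpb, the AP-1 subunit genes Fosl2 and Fosb, and Egr3 (45.1 against 18.04 CPM). The subunit genes Jun (221 against 219 CPM) and Fos (log2 ratio 0.43) differed less, and Myc was lower (21.8 against 40.2 CPM).

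Of 25 satellite cell genes, 2 were at least 2-fold higher and 4 lower, against 4.78% and 3.03% of all genes tested. The list median was -0.07, near the 0.03 of all genes, so the median did not stand on either side. The higher ones were Ncam1, an adhesion molecule (426 against 190 CPM), and Fgfr1, an FGF receptor (155 against 75.8 CPM). The lower ones were Sox8, Msc, a bHLH repressor (29.9 against 152 CPM), Lgr5, a receptor for R-spondin (55.8 against 130 CPM), and Dag1, which encodes dystroglycan (90.7 against 183 CPM). Myf5, which marks committed satellite cells, was at 38.5 against 71.1 CPM, and Pax3 at 34.0 against 30.3 CPM. The Notch target genes Hes1 (99.3 against 61.6 CPM) and Hey1 (60.3 against 39.7 CPM) were above their Cdkn1c-high level by less than 2-fold, and of 11 Notch genes none reached 2-fold (median 0.06).

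Of 20 activation and commitment genes, 0 were at least 2-fold higher and 3 lower (median -0.37). These were Sox8, Actc1, the cardiac actin of embryonic muscle (99.8 against 326 CPM), and Ccnd3, the D-type cyclin of differentiating myoblasts (404 against 880 CPM). Myod1 was at 46.1 against 82.7 CPM. Among Pax7-positive barcodes that all passed the Myog and cycling limits, Myod1 differed little with Cdkn1c. It was at 50.1 and 38.5 CPM in the member classes of Cdkn1c described below. The classes above them had 37.9, 54.0, 52.0 and 49.9 CPM. When the Myog and cycling limits were put on both groups the list median was -0.085 and the log2 ratio of Actc1 was -0.63 in place of -1.71, so these values moved toward 0 once the Cdkn1c-high barcodes met the same limits. The 32 sarcomere genes summed to 2135 CPM in members and 1746 CPM in Cdkn1c-high barcodes, with a single member at 972 UMIs per 10000. Acta1, for instance, drew 37.2% of its UMIs in the members from 1 barcode. Of 18 sarcomere genes at 20 CPM or more, Mybpc1 and Myh8 were at least 2-fold higher in members, but without the 5% of barcodes with most UMIs their log2 ratios were -0.98 and -0.12.

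The G1 list held D-type cyclins, their kinases, Rb and E2f family genes and Myc, and all 10 genes measured were lower in members, 2 of them at least 2-fold (median -0.61, and -0.53 with the limits on both groups). Ccnd2 was at 92.8 against 200 CPM and Cdk4 at 299 against 452 CPM, beside Ccnd3. The cycling limit chose members partly on this axis, so the list is no independent measure. Of 22 S phase genes 0 reached 2-fold in either direction (median -0.11). Among 7 inhibitors of cyclin-dependent kinases apart from the rule gene, Cdkn2b (61.8 against 22.2 CPM) was at least 2-fold higher. Cdkn2a was at 534 against 362 CPM and Cdkn1a, which encodes p21, at 419 against 308 CPM.

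Of 17 p53 target genes, 16 were higher in members, 2 of them at least 2-fold, with a median of 0.53. Trp53inp1 was at 64.4 against 18.6 CPM and Polk, a translesion polymerase, at 45.1 against 20.1 CPM, while Mdm2, the ligase that degrades p53, was at 219 against 117 CPM.

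Of 29 collagen and matrix genes, 9 were at least 2-fold higher and 0 lower (median 0.66). Timp1, an inhibitor of matrix metalloproteases, was at 366 (340 to 394) against 70.5 CPM (64.5 to 76.9), Fn1, fibronectin, at 356 against 82.4 CPM, and Nid1, a basement membrane linker, at 81.6 against 15.1 CPM. Col6a2 was at 76.0 against 21.6 CPM and Col6a1 at 215 against 69.4 CPM, whereas Lama2, the laminin chain of muscle basement membrane, was lower, at 642 against 1114 CPM. The median was 0.36 for the members of cluster 3, described below, and 0.37 with at least 2 Pax7 UMIs.

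Among 19 TGF-beta and BMP genes, 4 were at least 2-fold higher and 1 lower (median 0.23). Ltbp1, which holds latent TGF-beta in the matrix, was at 96.8 against 17.4 CPM, and the ligand Tgfb1 at 44.6 against 10.6 CPM, while the ligand Tgfb2 was at 200 against 519 CPM. Of 6 Wnt target and feedback genes 0 were at least 2-fold higher and 2 lower, Lgr5 and Tcf7l2 (89.7 against 182 CPM). The tetraspanin and integrin list held 3 at least 2-fold higher genes of 18, Cd9, Tspan14 (68.9 against 20.8 CPM) and Cd151 (104 against 44.0 CPM), and 0 lower. FGF receptor and feedback genes held 2 of 10 higher and 0 lower, and IGF genes 0 of 12 higher and 1 lower, Irs1 (127 against 278 CPM).

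Of 6 interferon genes at this level, 2 were at least 2-fold higher, Ifitm3 (370 against 116 CPM), a membrane protein that blocks virus entry, and Ifi27 (41.1 against 16.4 CPM), and the median was 0.61. Of 4 antigen presentation and Ly6 genes 2 were higher, Ly6e and Psme1. No JAK/STAT gene of 18 reached 2-fold (median 0.27), with Jak1 at 216 against 147 CPM and Stat3 at 123 against 92.7 CPM. Among 18 imprinted genes, Ndn was higher (38.0 against 2.78 CPM) and Plagl1 (319 against 703 CPM) and Ddc were lower.

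Housekeeping lists stayed near the all-gene median: 34 oxidative phosphorylation genes had a median of -0.003, 19 glycolysis genes 0.04, and none of either reached 2-fold. Of 12 cholesterol synthesis genes, 10 were higher in members, 0 by 2-fold (median 0.41). No Hox gene reached a mean of 20 CPM over both groups.

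**Figure D3:**
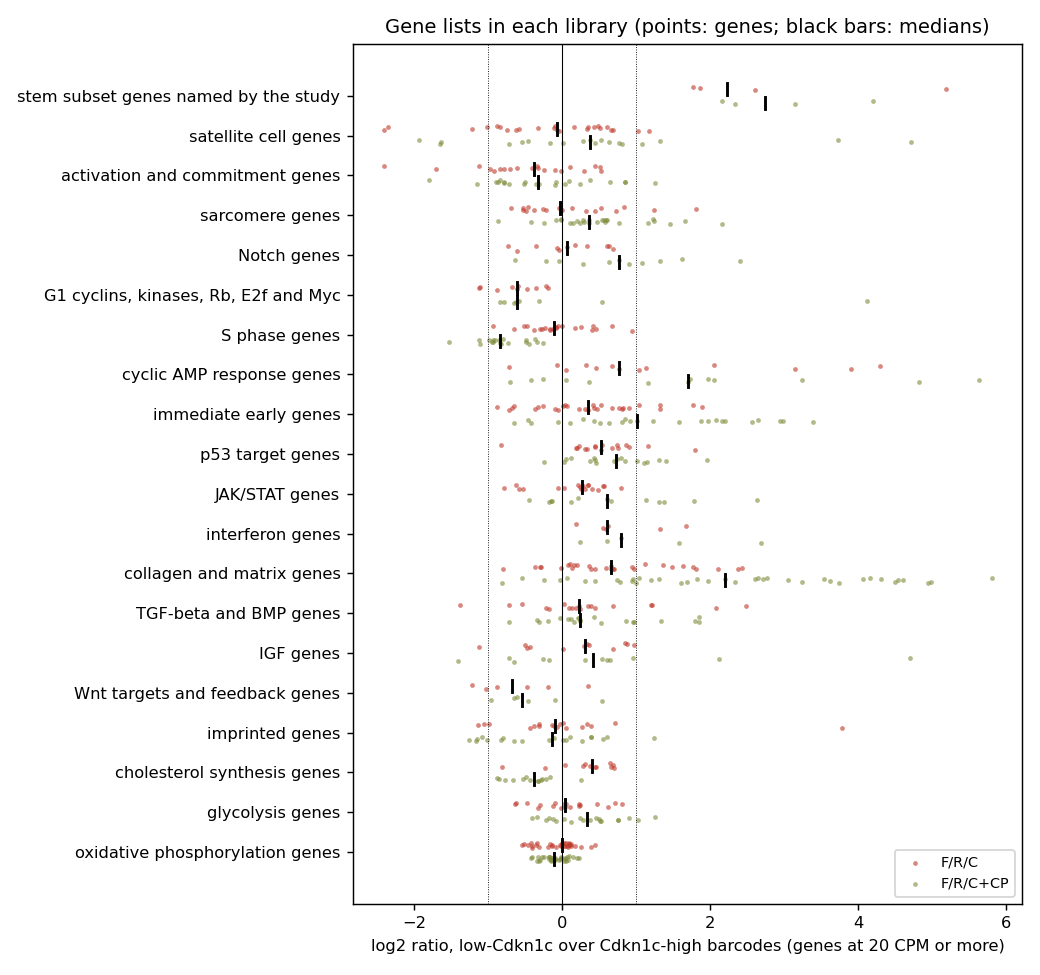
Log2 ratio of low-Cdkn1c over Cdkn1c-high barcodes for the genes of 20 lists, in the F/R/C library and, by the same limits, in the F/R/C+CP library; points are genes, black bars are list medians and dotted lines mark 2-fold. In F/R/C the cyclic AMP median was 0.76 and the G1 median -0.61, and the cholesterol medians of the libraries lay on opposite sides of 0.

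The members were not uniform. When all kept F/R/C barcodes were clustered, 195 members (64.1%) fell in cluster 3, 52 (17.1%) in cluster 0, 44 (14.47%) in cluster 5 and 13 elsewhere. Cluster 3 was led by Prkcb, S100a8, Rorb and Tshz2, cluster 0 by Trpm3 and Kcnh5, and cluster 5 by Bgn, Tagln and Col1a1, and none of them was given a cell type name. The clustering used the same genes, so the levels below describe the portions and are no test. Members were 32.7% of cluster 3, 5.62% of cluster 0 and 15.3% of cluster 5.

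Some genes were found across all 3 portions. Spp1 was at 3868, 4115 and 2357 CPM in the members of clusters 3, 0 and 5, Cd9 at 172, 156 and 158 CPM, and Slit2 at 499, 237 and 188 CPM. Others were held mainly by a single portion. Prkcb was at 194, 24.0 and 23.1 CPM, and Rorb at 81.5 CPM in cluster 3 with no UMI in the members of clusters 0 and 5 (upper limits 11.05 and 14.2 CPM). Scg2 was highest in cluster 0, at 111, 408 and 108 CPM, whereas Ebf1 was lowest in cluster 3, at 53.3, 213 and 250 CPM. At least 20 UMIs were held by 5 members for Scg2 (at most 33) and by 2 members for Ebf1 (at most 47). A few barcodes may therefore weigh on these levels.

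Apold1 was at 109 CPM in cluster 3, 21.0 CPM in cluster 0 and 84.6 CPM in cluster 5, with intervals of 91.6 to 129, 8.43 to 43.2 and 53.01 to 128. Trpm3 was at 617 CPM in the cluster 0 members, near the 686 CPM of Cdkn1c-high barcodes, and at 21.2 CPM in cluster 3. The connective and contractile genes stood in cluster 5: Bgn was at 108 CPM there and 1.57 CPM in cluster 3, and Tagln, an actin-binding protein of smooth muscle, at 338 and 13.3 CPM. The 13 members in the other clusters, 4 of them in the Myh3 cluster, had Acta1 at 4482 CPM and Apold1 at 9.72 CPM.

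**Figure D4:**
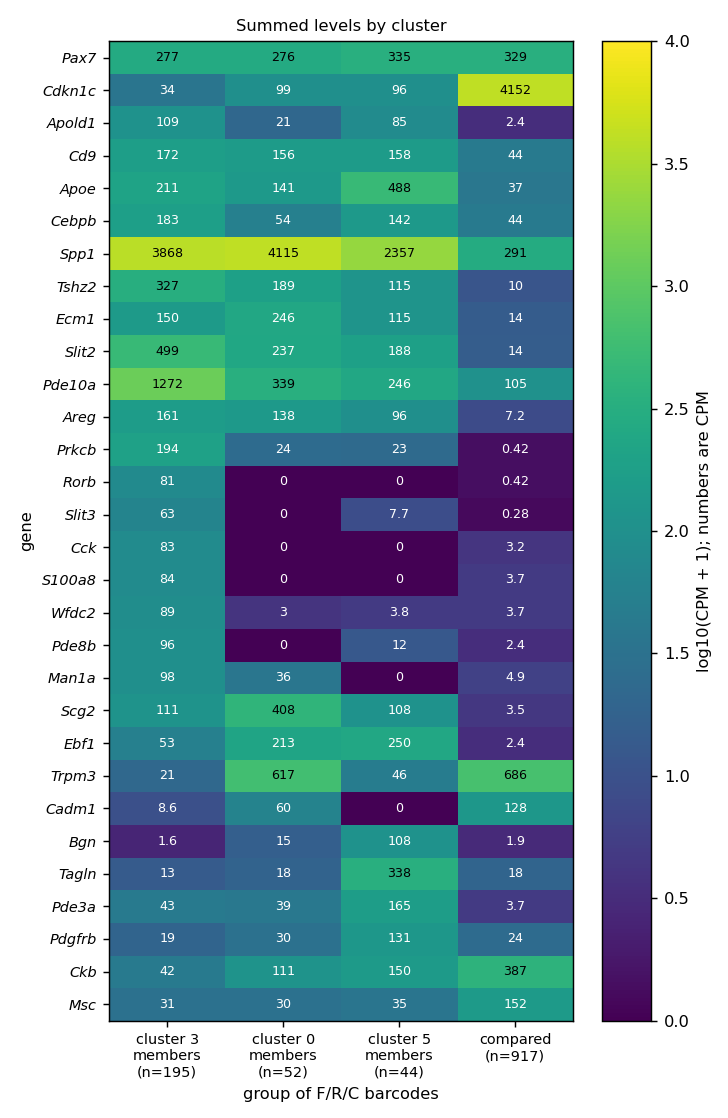
Summed level of 30 genes (rows) in the members of clusters 3, 0 and 5 and in all Cdkn1c-high barcodes (columns); colour is log10(CPM + 1) and the printed numbers are CPM. Spp1 and Cd9 were high in all 3 portions, Prkcb and Rorb mainly in cluster 3, Trpm3 in cluster 0 and Tagln in cluster 5.

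The levels were also followed over Cdkn1c among Pax7-positive barcodes that all passed the Myog and cycling limits, in 6 classes of 210, 94, 120, 113, 274 and 234 barcodes from no Cdkn1c UMI to at least 40 per 10000. Spp1 was at 4026, 2670, 991, 597, 376 and 284 CPM, so its level was lower in each higher class. Slit2 was at 441, 289, 85.3, 44.8, 20.8 and 18.95 CPM. Apold1 was at 92.4 and 72.6 CPM in the member classes, 15.4 CPM in the next and 1.90 to 3.12 CPM in the last 3, whose intervals overlap.

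Prkcb was at 173, 54.8 and 11.8 CPM in the first 3 classes and had no UMI in the last 3, with upper limits of 4.86, 1.92 and 2.33 CPM. Ebf1 differed from this order, with 73.2 CPM in barcodes without Cdkn1c and 161 CPM in members with 1 or more Cdkn1c UMIs. These levels rest on 95 and 109 Ebf1 UMIs, and a single member held 47. Few barcodes may set this order, which the counting intervals do not cover. In the other direction Msc was at 25.4, 38.5, 46.2, 84.3, 138 and 192 CPM and Ckb at 65.5, 75.6, 97.1, 169, 288 and 561 CPM. Pax7 itself was at 278 and 279 CPM in the member classes and 312 to 366 CPM above them.

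**Figure D5:**
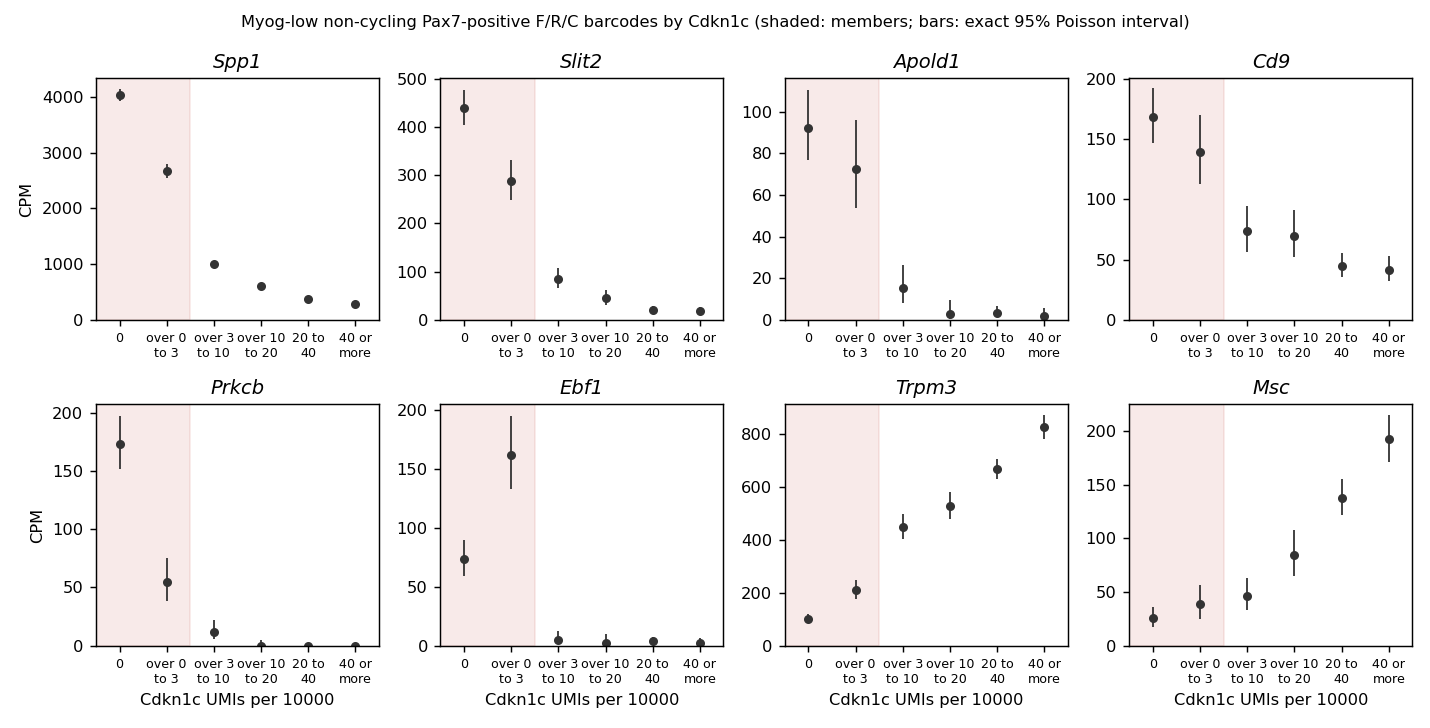
Level in CPM of 8 genes in Myog-low non-cycling Pax7-positive F/R/C barcodes, in 6 classes of Cdkn1c UMIs per 10000; bars are exact 95% Poisson intervals for counting error and the shaded classes are the members. Spp1 was at 4026 CPM without Cdkn1c and 284 CPM in the highest class, while Msc was at 25.4 and 192 CPM.

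Several leading genes were also found in barcodes without a Pax7 UMI. The 354 kept barcodes that met every other limit but had no Pax7 UMI had a median of 5218.5 UMIs against 6309 in members, and 164 of them lay in cluster 3. Apold1 was at 73.3 CPM in them, Prkcb at 161 CPM, Slit2 at 331 CPM, Cd9 at 181 CPM, Areg at 239 CPM and Spp1 at 4581 CPM. Their Acta1 level was 1116 CPM against 335 CPM in members, but 97.0 CPM in the 164 of cluster 3. At their depth, an absent Pax7 UMI does not show an absent transcript.

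The same limits, with up to 7000 detected genes, found 342 barcodes in the F/R/C+CP library, 9.50% of its 3600 Pax7-positive Myog-low non-cycling barcodes, against 29.1% in F/R/C. The libraries differ in depth, and every F/R/C+CP barcode had at least 12097 UMIs. The 342 barcodes had a median of 2.03 Cdkn1c UMIs per 10000, while 210 of the 304 members had none. The shares are therefore not of like barcodes. The 342 were set against 2874 Cdkn1c-high barcodes of that library, with 598 of 6201 genes (9.64%) at least 2-fold higher and 230 (3.71%) at least 2-fold lower. Low and high barcodes there had medians of 17473.5 and 22098.5 UMIs. Pericyte or smooth muscle markers summed to 3966 CPM in the low and 1530 CPM in the high barcodes, and connective markers to 690 and 81.0 CPM. In F/R/C the first list summed to about the same in both groups, at 1004 and 1141 CPM. Values are therefore also given for the 102 low and 2275 high barcodes without a Bgn, Pdgfrb or Myh11 UMI, and the part of these markers in the differences was not tested beyond that. Leaving out these marker barcodes also moved muscle genes. The sarcomere median was 1.45 without them, against 0.37 with them and -0.02 in F/R/C. The activation and commitment median was 0.31, against -0.33 and -0.37 in the same order. The 102 low barcodes are therefore not a plain counterpart of the members.

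Of the 15 genes furthest above in F/R/C members, 12 were also at least 2-fold higher with CP. Areg was at 225 against 4.55 CPM (log2 ratio 5.63, and 5.21 without the marker barcodes), Scg2 at 233 against 4.96 CPM (5.55 and 4.76), and Apold1 at 49.0 against 2.65 CPM (4.21 and 3.42). Prkcb had a log2 ratio of 4.82 with CP, and 1.75 without the marker barcodes, at only 14.8 CPM. Slit3 was the exception in sign, at -0.44. With Cdkn1c limits of 8.74 and 18.2 UMIs per 10000, which give low and high barcodes the same shares as in F/R/C (1047 and 3118 barcodes), the number was again 12 of 15. Of the 303 genes at least 2-fold higher in F/R/C members, 205 were also at least 2-fold higher with CP and 137 without the marker barcodes. Of the lower genes, 10 of the 15 furthest below had the same sign with CP, and 8 of them were at least 2-fold lower (7 at the same shares, 6 without the marker barcodes). A shared sign was common among all genes. Of the 5666 genes tested in both libraries, 2999 were higher in F/R/C members, and 2150 of those had the same sign with CP. Of all 192 lower genes, 95 were also at least 2-fold lower with CP, and 74 without the marker barcodes.

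The collagen and matrix list had a median of 2.20 with CP and 0.38 without the marker barcodes, against 0.66 in F/R/C. The cyclic AMP median was 0.76 in F/R/C, 1.70 with CP, 0.33 without the marker barcodes and 0.63 at the same shares. The G1 median was -0.61 in F/R/C and -0.60 with CP, but -0.32 with CP without the marker barcodes and -0.21 at the same shares. The p53 target median was 0.53 in F/R/C, 0.72 with CP, 0.59 without the marker barcodes and 0.37 at the same shares. The satellite list had a median of 0.38 with CP and 0.05 without the marker barcodes.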

How the data were processed

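Both libraries were made with the 10x 3' v3.1 chemistry, targeting 5000 cells. The authors deposited whole-number UMI counts for each gene in each barcode. Their notes give Cell Ranger 7.0.0 and the build GRCm39. The submitters' notes also name STARsolo and Seurat 4.2.1. A free-RNA correction is described for F/R/C+CP only. The deposited counts are whole numbers, and it could not be told whether they were corrected. The 46 features sharing a symbol were kept apart.

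Counts were summed over barcodes and divided by their total (CPM). Log2 ratios used genes with a mean of at least 20 CPM, a group at 0 was set to 3 counts, and at least 2-fold was called. Intervals were exact Poisson, conditional binomial or Clopper-Pearson (95%). PCR and droplet effects are not in them. Shares at 2000 UMIs used seeded thinning. Clusters came from Seurat 5.3.0 (R 4.3.3) with 2000 variable genes, 30 principal components and resolution 0.5. No doublets were removed. Other steps used Python 3.11.15, numpy 2.4.6 and scipy 1.17.1. The ratio step was checked on simulated data.

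The members, the gene lists and the alternatives were chosen with earlier results of these data known. Named genes were the markers of the label, the 15 largest ratios in each direction outside the rule, mt- and Rps/Rpl genes, and from each list up to 4 with the highest mean and up to 4 with the largest ratio. Further list members are named where a count of 5 or fewer includes them or to show the spread of a list. The alternatives were 12 planned settings and, added after seeing the data, members of cluster 3 only and F/R/C+CP barcodes without smooth muscle markers. The reference genome here is GRCm38, so it was used for promoter windows only.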

Additional observations from a re-analysis of the deposited data

Results flagged for a closer look

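Among named genes, 4 were at least 2-fold apart between low and high Cdkn1c barcodes in both libraries, but in opposite directions, and the cholesterol synthesis list had medians on opposite sides of 0. List medians near 0 in F/R/C, such as that of the satellite cell genes (-0.07, and 0.38 with CP), also changed sign. Other genes changed sign with a difference under 2-fold in 1 library, Slit3 among them. These differences were not tested because each library is 1 clone. The median of the cholesterol synthesis genes was 0.41 without CP and -0.38 with CP, a difference of -0.79 on the log2 scale. With CP 13 of 14 genes were lower in the low barcodes, against 2913 of all 6201 genes tested there. The cyclin gene Ccnd2 was at 92.8 against 200 CPM without CP and 636 against 36.6 CPM with CP, a difference in log2 ratio of 5.23, and its ratio with CP was 1.27 without barcodes holding a smooth muscle marker UMI. Slc35f1 was at 13.2 against 89.0 CPM and 80.4 against 8.39 CPM, a difference of 6.02, and Sh3rf3 at 16.7 against 89.5 CPM and 11.2 against 1.13 CPM, a difference of 5.74. Tfap2b differed by 4.90, but with CP it was at 0.44 and 0.10 CPM only. With CP, Sh3rf3 and Tfap2b were under the mean of 20 CPM asked of genes in the lists. The ratio without smooth muscle marker barcodes is given for Ccnd2 only. Of the 15 genes furthest below in F/R/C, 10 had the same sign with CP and 11 without those barcodes.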

How the results depend on the processing

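Each group is 1 library, so no replicate could be left out, and no paired analysis was possible because each group has 1 library, so the groups share a single replicate number. Of the 74 named genes at least 2-fold apart, 71 to 74 kept their sign and 65 to 74 stayed at least 2-fold across settings. Members were 12.5% of Pax7-positive barcodes with at least 2 Pax7 UMIs in both groups and 11.2% when no Cdkn1c UMI was allowed. With a mean of at least 50 CPM, 3304 genes were compared in place of 6342. Of them 126 were at least 2-fold higher and 84 lower, and the cyclic AMP median was 0.46. The count higher was 456 of 6353 genes without the Pax7 limit. The collagen and matrix median was 0.37 with 2 Pax7 UMIs, 1.24 without the Pax7 limit and 0.36 in cluster 3. The activation and commitment median was -0.085 with the Myog and cycling limits on both groups, -1.17 without the Pax7 limit and -0.79 in cluster 3. Signs reversed for Mybpc1 (1.81 to -0.98 without the top 5% of barcodes by UMIs, -0.59 with 2 Pax7 UMIs, -2.15 without Cdkn1c UMIs, -1.39 in cluster 3), Myh8 (1.24 to -0.12, -1.13, -0.16 and -1.44 in the same order), Cck (-0.22 with 2 Pax7 UMIs, -0.018 without the Pax7 limit) and Tagln (-0.46 in cluster 3). For Mybpc1 60.6% and for Myh8 35.7% of the member UMIs came from 1 barcode. The cause was not tested for the others. Depth limits genes under 20 CPM, where the members hold few UMIs.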
